A study of Mus musculus with 8 samples.

Results

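Jejunal crypts that had lost Smad4 on top of an activated Braf allele were compared with crypts that carried the activated allele alone. The comparison took 6 of the 8 libraries of the series, 3 of the group SMAD4KO_BRAF and 3 of the group BRAF, chosen by their columns in the table of expression values. All 6 came from mice with 1 conditional BRAF-V600E allele (f/+), which encodes a constantly active kinase of the MAPK pathway, and with Villin-CreER(T2), a Cre recombinase made active by tamoxifen. SMAD4KO_BRAF mice also carried Smad4 f/f, so that the same recombinase deletes Smad4, and BRAF mice had no further floxed gene. The mice received tamoxifen for 4 days in a row, and crypts were taken 1 day after the last dose by dissociation in EDTA and filtering. Both groups therefore share the kinase allele, the recombinase and the tamoxifen, and they differ by label in the floxed Smad4 alleles. The Villin promoter restricts deletion to the intestinal epithelium and leaves the mesenchyme, the main source of several BMP ligands, with its Smad4. The other 2 libraries, labelled CDX2KO_BRAF (Cdx2 f/f with the same kinase allele and recombinase), were used only for a direct comparison at the end. The labels used here give no ages and do not describe the libraries as separate animals, so the p-values rest on the spread of these libraries, which may in part be technical.

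Bone morphogenetic proteins (BMPs) and transforming growth factor beta (TGF-beta) bind paired receptor kinases that phosphorylate receptor-regulated Smad proteins, and these enter the nucleus together with Smad4, the partner common to both branches. In the small intestine BMP signalling is low at the crypt base, where stem cells and Paneth cells sit and secreted inhibitors are made, and it increases toward the villus tip. Enterocytes change their gene programme as they move along the villus, from defence genes near the base to carbohydrate and amino acid transporters in the middle and to purine and lipid genes at the tip.

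The values were FPKM, which scale a gene's reads by its length and by the library's depth, for 23951 gene symbols. FPKM summed to between 431269 and 595547 in the 6 libraries, with 11181 to 11570 genes at an FPKM of 1 or more. The absolute depth is unknown because the files hold no counts. The commonest ratio among low values put the relative depth of BRAF libraries 1 and 2 at 0.762 and 1.44, with BRAF library 0 set to 1, and that of SMAD4KO_BRAF libraries 0 to 2 at 0.707, 0.799 and 0.871. For a log2 difference, the standard error had a median of 0.210 for genes with a mean FPKM under 5, 0.150 from 5 to 100 and 0.215 above that. Pearson's r between libraries, taken over genes that are no independent replicates, was 0.895 to 0.938 within BRAF, 0.915 to 0.936 within SMAD4KO_BRAF and 0.873 to 0.930 between the groups, so these ranges overlapped. Sex-linked genes marked library 0 of each group as male and the other 4 as female, so each group holds more than 1 animal. Epcam, the epithelial adhesion gene, was at 676 to 992 in the 6 libraries. Of 14 markers of all epithelium, 12 were lower in mean in SMAD4KO_BRAF and 1 was lower without overlap, with a median log2 difference of -0.30 that ran from -0.46 to -0.13 with 1 library left out. The gene without overlap was Vil1, which is also counted among the brush border genes below. The part of these 14 markers in the lower absorptive lists described below was not tested. Of the markers of other cells, those of T cells differed most within groups, with a summed FPKM of 43.9, 1174 and 213 in BRAF libraries 0 to 2 and 63.97, 208 and 588 in SMAD4KO_BRAF libraries 0 to 2. Of the other lists markers, 13 of 21 genes of mesenchyme, 13 of 17 of myeloid cells, 6 of 13 of B and plasma cells, 2 of 12 of endothelium and 0 of 10 of neurons and glia had enough signal to be tested, and the smooth muscle genes Myh11, Acta2 and Des stayed under an FPKM of 1 in all 6 libraries.

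Smad4 was read first, as a check of the labels. Its FPKM was 42.5, 46.97 and 42.4 in BRAF libraries 0 to 2 and 10.7, 8.38 and 7.66 in SMAD4KO_BRAF libraries 0 to 2. Every SMAD4KO_BRAF library lay below every BRAF library, and Smad4 fell 4.92-fold in mean FPKM, from 43.9 ± 2.62 to 8.93 ± 1.61 (SD, n = 3 each). On the scale of log2(FPKM + 1), used for all differences here and understating changes of genes at low FPKM, the difference was -2.19 ± 0.14 (± standard error, limma, adjusted p = 0.00691, range over alternatives 0.000725 to 0.0724). That call ended without SMAD4KO_BRAF library 1 (adjusted p = 0.0553) and with a block for the column number (0.0724). The remaining Smad4 signal cannot be assigned to undeleted cells or to transcript outside the floxed part, because FPKM covers the whole gene. Braf, the activated oncogene, was at 4.38, 4.47 and 3.85 in BRAF and 4.35, 4.88 and 4.11 in SMAD4KO_BRAF, and the groups overlapped (adjusted p = 0.844).

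Few genes passed the test over all 11860 genes. At an adjusted p under 0.05 9 genes (0.0759%) were called, 3 higher (0.0253%) and 6 lower (0.0506%) in SMAD4KO_BRAF, where 5.67% and 7.98% of all genes had an unadjusted p under 0.05 in these directions. The 6 lower genes were Smad4, Id3, Maf, Npl and a pair of microRNA symbols, and the 3 higher genes were all symbols of short RNAs. By contrast, 1071 genes (9.03%) were higher and 1241 genes (10.5%) lower without any overlap between the groups' libraries. These 2 shares are the background for every count of genes without overlap given here. The median difference of all genes was -0.01, with 48.2% of genes positive and 51.8% negative. No other gene named in the text passed the test.

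Id3, Maf and Npl were the other protein-coding genes that fell. Id3, a direct BMP target whose product holds back helix-loop-helix transcription factors, was at 39.3, 36.1 and 28.4 FPKM in BRAF libraries 0 to 2 and at 6.74, 6.95 and 9.97 in SMAD4KO_BRAF libraries 0 to 2. Its mean fell 4.39-fold, with a log2 difference of -2.01 ± 0.19 (limma, adjusted p = 0.0408, range 0.0189 to 0.256). Maf, which encodes a leucine zipper transcription factor, was at 32.2, 43.9 and 36.4 in BRAF and 13.6, 11.3 and 11.8 in SMAD4KO_BRAF. The fall was 3.06-fold in mean FPKM, or -1.53 ± 0.14 on the log2 scale (limma, adjusted p = 0.0408, range 0.00513 to 0.256). Npl, the lyase that splits sialic acid, had the lowest level of the 3, at 8.77, 6.47 and 6.79 in BRAF and 1.07, 0.453 and 0.694 in SMAD4KO_BRAF. Npl fell 9.93-fold, or -2.27 ± 0.19 on the log2 scale (limma, adjusted p = 0.0275, range 0.00444 to 0.123). In none of the 3 genes did a SMAD4KO_BRAF library reach the lowest BRAF library. These 3 calls lie close to the threshold: Id3 and Npl passed under 8 of 19 alternatives and Maf under 7. Each stood at an adjusted p of 0.0523 once symbols of short RNAs were left out. Without BRAF library 0 the adjusted p was 0.149 for Id3, 0.0658 for Maf and 0.0962 for Npl, and without BRAF library 2 it was 0.0611, 0.134 and 0.0934. Without SMAD4KO_BRAF library 1 it was 0.256 for Id3 and Maf and 0.111 for Npl. Id3 also missed the threshold without BRAF library 1 (0.0929) or SMAD4KO_BRAF library 0 (0.110), Maf without SMAD4KO_BRAF library 0 (0.0832) or 2 (0.194), and Npl without SMAD4KO_BRAF library 2 (0.116).

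**Figure D1:**
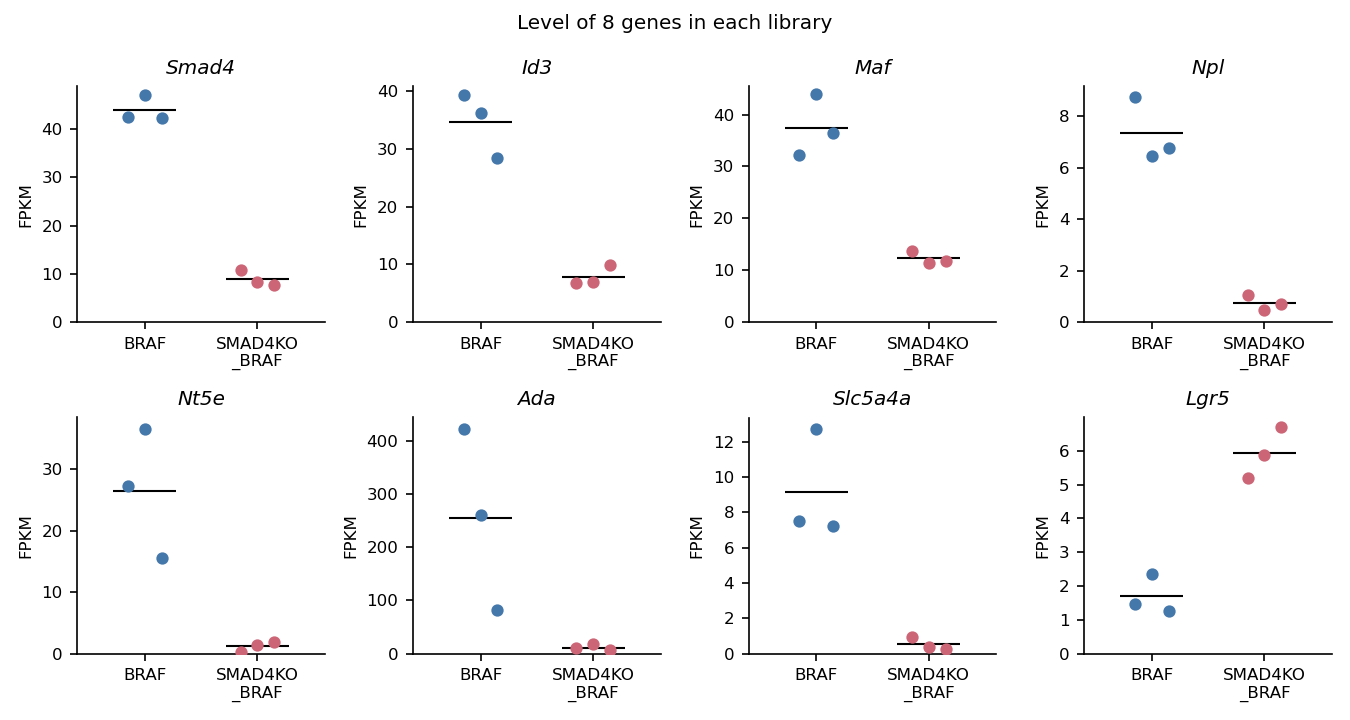
Each point is the FPKM of 1 library and each line a group mean, for 8 genes; every vertical axis starts at 0. Smad4, Id3, Maf and Npl fell, while Nt5e, Ada, Slc5a4a and Lgr5 did not pass the test over all genes although no SMAD4KO_BRAF library lies within the range of the BRAF libraries.

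The other 5 called symbols were short RNAs, and their values need a caution. Mir7011 was at 152, 102 and 106 FPKM in BRAF and was listed at 0 in the 3 SMAD4KO_BRAF libraries (limma, adjusted p = 9.85e-05). Mir1943 was at 372, 83.8 and 85.4 in BRAF and likewise listed at 0 in SMAD4KO_BRAF (adjusted p = 0.0243). Mir7035, listed at 0 in BRAF, was at 104, 58.3 and 52.9 in SMAD4KO_BRAF (adjusted p = 0.00133). The same pattern held for the small nucleolar RNA Snord73a, at 330.2, 133 and 121 in SMAD4KO_BRAF (adjusted p = 0.00286), and for Mir6943, at 427, 145 and 131 (adjusted p = 0.00487). These genes are 66 to 82 bases long, little more than the 50 bp reads, and 4 of them are hairpins from which mature microRNAs are cut. The 4 hairpins are shown to make their length visible, from RefSeq (GRCm38.p6), with the mature arms in capitals.
Mir7011: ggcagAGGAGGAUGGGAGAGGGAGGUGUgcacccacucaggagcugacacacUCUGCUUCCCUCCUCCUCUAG
Mir1943: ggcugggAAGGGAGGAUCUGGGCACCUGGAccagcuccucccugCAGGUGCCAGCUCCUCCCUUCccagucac
Mir7035: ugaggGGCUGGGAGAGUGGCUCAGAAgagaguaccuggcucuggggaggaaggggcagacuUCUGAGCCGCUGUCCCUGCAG
Mir6943: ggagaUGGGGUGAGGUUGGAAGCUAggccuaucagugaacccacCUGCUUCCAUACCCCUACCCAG

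Of the 219 tested symbols starting with Mir or Snor, 125 (57.1%) were listed at 0 in 1 library and at an FPKM of 10 or more in another library of the same group. Only 9 of the other 11641 symbols (0.0773%) did so. None of the genes that hold the 5 called symbols passed the test: the log2 difference was -0.32 for Sema4a, which holds Mir7011, -0.11 for Tmem184b (Mir1943), 0.39 for Rasa4 (Mir7035), 0.20 for Rps3a1 (Snord73a) and 0.16 for Grk6 (Mir6943), with adjusted p-values of 0.501 to 0.871. Hmgcs1, a cholesterol synthesis gene, is also listed at 0, in all 6 libraries. The cause of exact zeros was not tested. Without symbols of short RNAs, an alternative chosen after seeing the data, no gene was called higher and only Smad4 lower (limma, adjusted p = 0.0168).

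**Figure D2:**
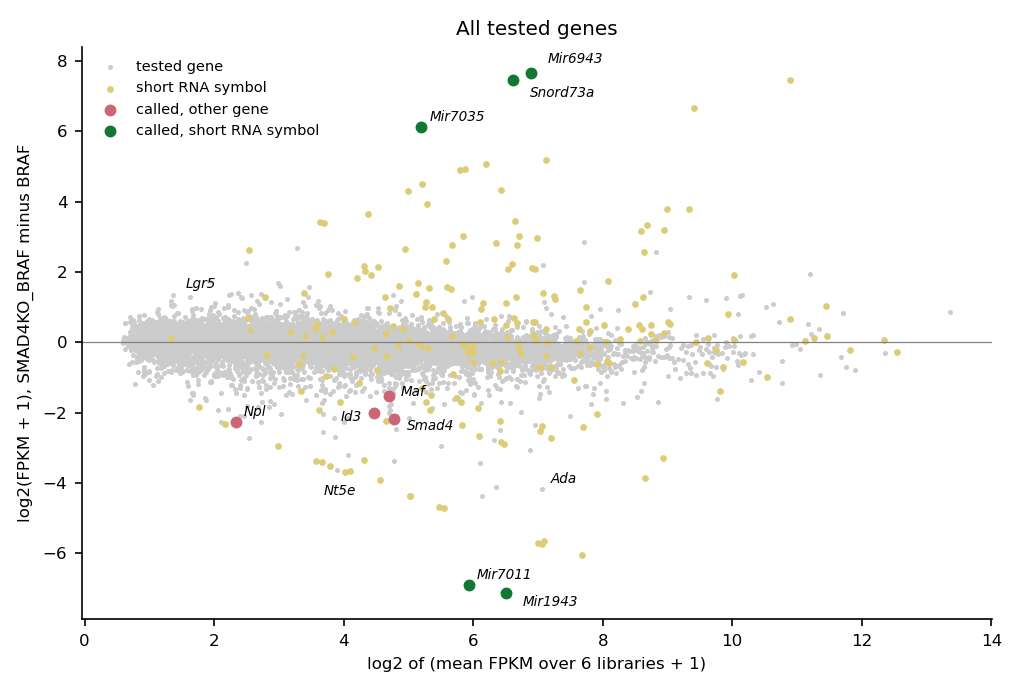
Difference in log2(FPKM + 1) between SMAD4KO_BRAF and BRAF (vertical) against log2 of the mean FPKM plus 1 (horizontal), 1 point per tested gene. Short RNA symbols are drawn in yellow, the 5 called ones in green and the 4 other called genes in red; each called short RNA is listed at 0 in all libraries of 1 group.

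The pathway that Smad4 serves was read by the roles of its members. Among ligands, 8 of 15 listed genes were expressed enough to be tested, with 2 higher and 1 lower without overlap. Bmp3, an atypical BMP ligand that can oppose the others, was at 18.5, 8.96 and 22.2 FPKM in BRAF and 30.5, 27.6 and 26.7 in SMAD4KO_BRAF, a log2 difference of 0.82 ± 0.31 (limma, adjusted p = 0.356). Bmp7 was at 2.95, 3.09 and 3.52 and 5.11, 7.37 and 4.26, a difference of 0.63 ± 0.19 (adjusted p = 0.326). Bmp8a took the opposite course, at 7.41, 2.92 and 1.204 in BRAF and 0.7602, 0.624 and 0.2598 in SMAD4KO_BRAF (-1.45 ± 0.48, adjusted p = 0.347). For Bmp2, Bmp8b and the stress-induced ligand gene Gdf15 the differences were -0.84, -1.32 and -1.01, with overlap, and BRAF library 0 held the highest Bmp2 and Bmp8b, at 9.53 and 17.4. The list's median of -0.44 was -0.20 without BRAF library 0, -0.26 without BRAF library 2, and 0.63 over genes with a minimum FPKM of 5.

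Receptor genes differed by at most 0.40 on the log2 scale. Of 9 tested, Tgfbr1, the type I receptor for TGF-beta, was higher without overlap, at 6.82, 7.04 and 6.25 in BRAF and 7.15, 10.01 and 10.7 in SMAD4KO_BRAF (0.40 ± 0.16, adjusted p = 0.361), and Acvr2a, a type II receptor for activins and BMPs, was lower, at 13.4, 11.1 and 11.6 and 9.47, 8.62 and 8.996 (-0.38 ± 0.11, adjusted p = 0.316). Bmpr1a, the main type I BMP receptor of the epithelium, was at 44.9 ± 6.33 in BRAF and 39.2 ± 2.99 in SMAD4KO_BRAF (adjusted p = 0.537), and its groups overlapped.

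Of the 6 tested Smad genes, only Smad4 passed. The BMP-branch gene Smad5 was at 5.64, 8.58 and 6.58 in BRAF and 8.88, 11.2 and 12 in SMAD4KO_BRAF, higher without overlap (0.57 ± 0.18, adjusted p = 0.332), whereas Smad1 of the same branch was at 0.09 with overlap. Smad2 and Smad3, which carry TGF-beta signals, were at 0.02 and 0.13. Smad7, an inhibitory Smad that the pathway itself induces, was at 8.46, 8.57 and 4.99 in BRAF and 4.55, 4.32 and 4.86 in SMAD4KO_BRAF, lower without overlap (-0.55 ± 0.20, adjusted p = 0.354). Among 7 inhibitors of the pathway the corepressor gene Tgif1 alone had groups without overlap, at 23.4, 21.1 and 20.6 in BRAF and 29.5, 36.1 and 25.96 in SMAD4KO_BRAF (0.46 ± 0.14, adjusted p = 0.326). The corepressor gene Skil was at 0.16, and the ubiquitin ligase genes Smurf1 and Smurf2 at 0.06 and -0.10.

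Targets of the pathway lay on both sides of 0. Of 9 tested, 5 were negative and 4 positive, 3 were lower without overlap (Id3, Smad7 and Tgfbi) and none higher, and 1, Id3, passed the test. Tgfbi, a matrix protein gene induced by TGF-beta, was at 41.5, 30.2 and 77.1 in BRAF and 21.8, 13.3 and 18.3 in SMAD4KO_BRAF (-1.35 ± 0.36, adjusted p = 0.307). Id1, like Id3 a BMP target, was at 60.8, 41.9 and 50.7 in BRAF and 41.9, 19.3 and 29.6 in SMAD4KO_BRAF, where the highest SMAD4KO_BRAF library met the lowest BRAF library (-0.79 ± 0.29, adjusted p = 0.354). Id2 was at -0.50, with overlap. Hes1, a Notch target that TGF-beta family signals can also induce, was at 0.41, and Pmepa1, a feedback inhibitor gene, at 0.37. The median of -0.50 is the value of the single gene in the middle of 9, and it was -0.10 without BRAF library 1 and -0.11 without SMAD4KO_BRAF library 0.

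**Figure D3:**
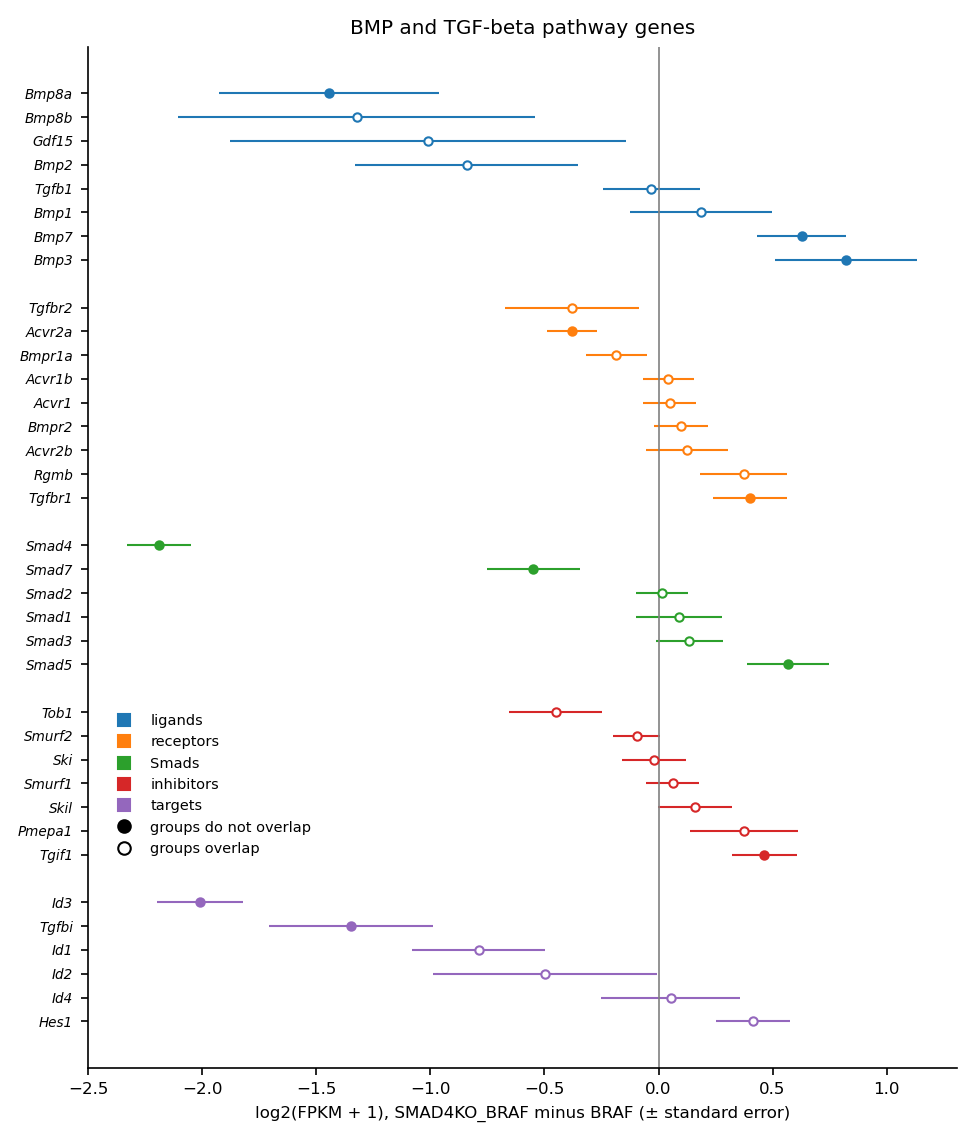
Difference in log2(FPKM + 1) between SMAD4KO_BRAF and BRAF (horizontal, bars ± standard error) for the tested BMP and TGF-beta genes (vertical), coloured by role, filled where the groups' libraries do not overlap; genes of 2 lists are drawn once. Smad4 and Id3, at -2.19 and -2.01, lie farthest from 0.

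The 250 bases before the start of Id3, the one called target, are shown with those of Nt5e and Ada, the villus tip genes described next, because the groups did not overlap in these 3. They come from RefSeq (GRCm38.p6), on the strand of each gene. Capitals mark the letters GTCT or their reverse complement AGAC, the short box that Smad3 and Smad4 bind, and a match of one cannot overlap a match of the other.
Id3: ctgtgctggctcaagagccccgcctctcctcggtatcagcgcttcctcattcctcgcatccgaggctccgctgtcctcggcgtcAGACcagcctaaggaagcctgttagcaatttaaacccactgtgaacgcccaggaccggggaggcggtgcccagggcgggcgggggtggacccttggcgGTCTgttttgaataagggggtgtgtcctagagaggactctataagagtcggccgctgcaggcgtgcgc
Nt5e: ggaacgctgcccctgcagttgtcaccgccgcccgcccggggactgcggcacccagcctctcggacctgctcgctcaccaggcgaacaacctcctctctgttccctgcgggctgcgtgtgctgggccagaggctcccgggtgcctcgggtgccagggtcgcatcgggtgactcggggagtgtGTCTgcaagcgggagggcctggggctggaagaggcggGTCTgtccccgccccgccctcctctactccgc
Ada: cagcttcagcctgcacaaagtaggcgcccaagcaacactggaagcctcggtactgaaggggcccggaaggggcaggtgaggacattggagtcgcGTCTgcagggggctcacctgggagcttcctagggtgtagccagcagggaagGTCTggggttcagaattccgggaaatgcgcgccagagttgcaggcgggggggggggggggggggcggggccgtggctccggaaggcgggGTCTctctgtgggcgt
The letters occurred 2 times before Id3, 2 times before Nt5e and 3 times before Ada. They are common: 82.9% of all 32851 windows hold them on either strand, so the matches describe these windows and no more.

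Genes of the villus tip were the lowest of all lists read. Members and lists were chosen with earlier results of these data known, so this rank is not independent of that choice. All 14 tested members were negative, 8 of them without overlap, and their median difference was -1.50. Set against the BRAF mean, the list's median stood at 0.54, -0.17 and -0.42 for BRAF libraries 0 to 2 and -1.26, -1.54 and -1.96 in SMAD4KO_BRAF libraries 0 to 2. No member passed over all genes, and leaving out any 1 library gave medians from -1.72 to -1.30. In bulk RNA, fewer cells of a type and less RNA per cell cannot be told apart, here and in every list that follows. All libraries came from crypt isolates, and the amount of villus tissue carried into each isolate is not known. The part of such tissue in the villus, absorptive and crypt base lists was not tested.

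A purine-handling group led the villus tip list. Nt5e encodes CD73, the ectoenzyme that makes adenosine from AMP, and was at 27.3, 36.6 and 15.5 FPKM in BRAF and 0.281, 1.45 and 1.93 in SMAD4KO_BRAF. Its mean was 21.6-fold lower, at -3.63 ± 0.41 on the log2 scale (limma, adjusted p = 0.0954). Ada, the deaminase that turns adenosine into inosine, was at 423, 261 and 81.9 in BRAF and 10.3, 17.6 and 6.56 in SMAD4KO_BRAF. Its mean was 22.2-fold lower (-4.17 ± 0.64, adjusted p = 0.183), and the BRAF libraries themselves spanned 81.9 to 423. Slc28a2 and Slc28a1 encode sodium-coupled importers of nucleosides. Slc28a2 was at 84.6, 46.9 and 15.5 in BRAF and 4.48, 5.46 and 0.769 in SMAD4KO_BRAF (-3.36 ± 0.73, adjusted p = 0.242), and Slc28a1 was at 27.3, 11.1 and 25.2 and 3.02, 2.74 and 1.92 (-2.56 ± 0.34, adjusted p = 0.165). Enpp3, an ectoenzyme that splits extracellular nucleotides, was at 404, 129 and 93.1 in BRAF and 33.3, 34.98 and 5.93 in SMAD4KO_BRAF (-3.06 ± 0.81, adjusted p = 0.307). None of the 5 passed the test, and in all 5 the groups stayed apart. The list of 18 purine salvage and nucleoside genes holds these 5 as well, so it is no separate support. In it 14 genes were negative, 7 lower and 3 higher without overlap, and the 7 lower genes include these 5. The median of -0.56 was -0.37 without BRAF library 0. The 3 higher genes included Slc29a1 and Slc29a2, the equilibrative nucleoside transporter genes, which move nucleosides down their gradient. Slc29a1 was at 23.9, 22.6 and 18.4 in BRAF and 29.2, 34.3 and 24.7 in SMAD4KO_BRAF (0.42 ± 0.16, adjusted p = 0.355), and Slc29a2 was at 2.07, 2.06 and 2.29 and 2.95, 4.56 and 3.67 (0.58 ± 0.16, adjusted p = 0.313). The third was the AMP deaminase gene Ampd3, at 0.23. Of the later steps, Pnp, the phosphorylase that splits inosine, was lower without overlap (-0.40 ± 0.13, adjusted p = 0.347).

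Other villus tip genes differed less. The peptide transporter gene Slc15a1 was at 169, 132 and 92.1 FPKM in BRAF and 46.3, 45.1 and 27.5 in SMAD4KO_BRAF (-1.70 ± 0.29, adjusted p = 0.213). Klf4, a transcription factor gene of cells that have left the cycle, was at 49.8, 34.8 and 28.8 and 16.9, 14.9 and 11.4 (-1.31 ± 0.23, adjusted p = 0.222), and the adhesion gene Tmigd1 at 53.8, 53 and 25.7 and 13.1, 4.62 and 11.7 (-2.10 ± 0.44, adjusted p = 0.238). The apolipoprotein gene Apoa4 and the transcription factor gene Creb3l3, also in the list, were at -0.93 and -0.26 with overlapping groups. Egfr was at -0.41, Junb at -0.91 and Fos at -0.67, again with overlap.

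The middle of the villus was lower too, with a smaller median. All 15 tested genes were negative, 8 without overlap, with a median of -1.11. Slc5a1, the sodium-glucose cotransporter gene, was at 1121, 368 and 615 in BRAF and 367, 170.3 and 121 in SMAD4KO_BRAF (-1.68 ± 0.54, adjusted p = 0.336), and Sis, which encodes sucrase-isomaltase, at 755, 368 and 508 and 320.4, 96.9 and 173 (-1.56 ± 0.48, adjusted p = 0.326). The amino acid transporter genes Slc6a19, Slc3a1 and Slc7a9 were at -1.58, -1.23 and -0.84, all without overlap. Fabp1, a fatty acid carrier gene of all enterocytes, was at -0.30 with overlap.

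Villus base genes lay on both sides of 0. Of 11 tested, 6 were positive and 5 negative, none had groups without overlap, and the median was 0.01. That median had no steady sign: it was 0.12, -0.15 and 0.40 without BRAF library 0, 1 or 2, -0.17, 0.17 and 0.13 without SMAD4KO_BRAF library 0, 1 or 2, and -0.21 with library weights. The lectin genes Reg3b and Reg3g, made against bacteria, were at 1.94 and 1.08, with FPKM of 1028, 139.7 and 2012 for Reg3b in BRAF and 7942, 1181 and 1771 in SMAD4KO_BRAF. The gasdermin genes Gsdmc2 and Gsdmc4 were at -1.71 and -2.48, where BRAF library 2 held the highest values, 55.1 and 133. Within BRAF, Reg3b thus spanned 139.7 to 2012. The difference between the zones was not tested.

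**Figure D4:**
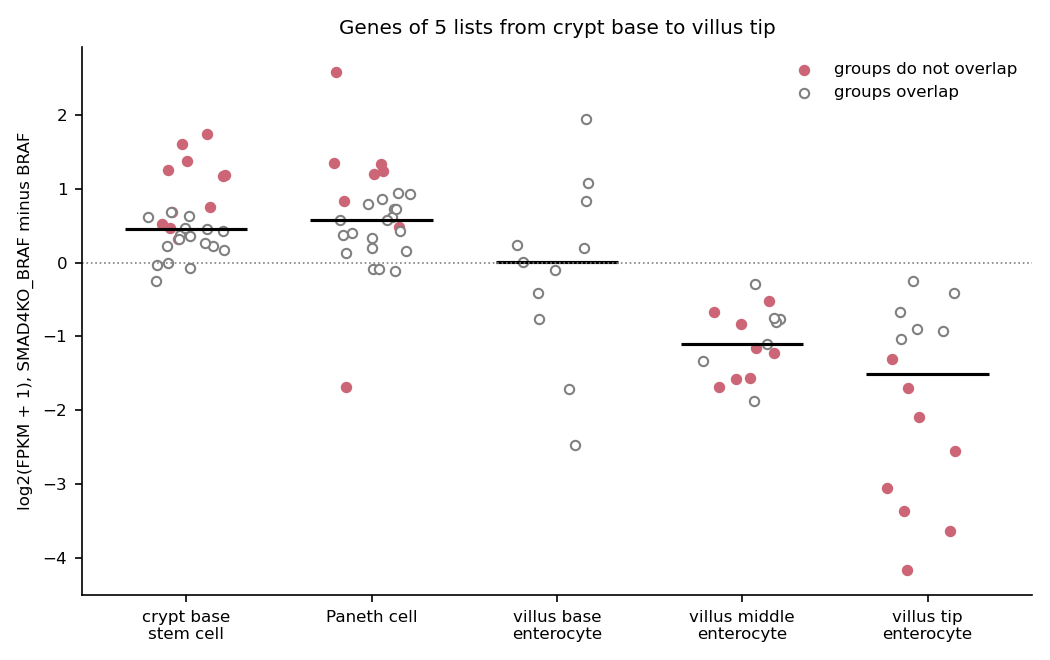
Difference in log2(FPKM + 1) between SMAD4KO_BRAF and BRAF (vertical) for each tested gene of 5 lists (horizontal), filled where the groups' libraries do not overlap, with a bar at each list's median. The medians are 0.46 and 0.58 for crypt base stem cell and Paneth cell genes, and 0.01, -1.11 and -1.50 from villus base to tip; with 1 library left out the villus base median ran from -0.17 to 0.40.

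Genes of the brush border, the layer of microvilli that carries digestive enzymes, were all negative. Of 34 tested, 23 were lower without overlap, none passed over all genes, and the median was -0.92. The list shares Sis, Lct, Treh and Mgam with the villus middle list and Tmigd1 with the villus tip list. It is thus not fully separate support. The peptidase gene Anpep was at 1794, 1074 and 1077 FPKM in BRAF and 476, 480.3 and 311 in SMAD4KO_BRAF (-1.62 ± 0.31, adjusted p = 0.238). Its fellow peptidase genes Xpnpep2, Dpp4 and Ace were at -1.27 ± 0.20, -1.11 ± 0.24 and -1.30 ± 0.34. Among structural genes, Vil1, which bundles actin in the microvillus, was at 862, 610.5 and 618 in BRAF and 522, 353 and 363 in SMAD4KO_BRAF (-0.76 ± 0.24, adjusted p = 0.336), and the scaffold gene Slc9a3r1 was at -1.16 ± 0.26. Set against the BRAF mean, the list's median was 0.36, -0.19 and -0.17 for BRAF libraries 0 to 2 and -0.50, -1.17 and -1.26 in SMAD4KO_BRAF libraries 0 to 2, so library 0 was the highest of each group.

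Transporters followed, with 35 of 36 genes negative, 17 lower without overlap and a median of -0.96. The transporter list shares Slc5a1, Slc2a2, Slc2a5, Slc7a7, Slc7a8, Slc7a9, Slc3a1 and Slc6a19 with the villus middle list. It also shares Slc28a1, Slc28a2 and Slc15a1 with the villus tip list, so it is not fully separate support. Slc5a4a, a relative of the sodium-glucose cotransporters, was at 7.49, 12.7 and 7.22 in BRAF and 0.959, 0.381 and 0.242 in SMAD4KO_BRAF, and at -2.72 ± 0.27 it came just short of the threshold (limma, adjusted p = 0.0510). Slc43a2, an amino acid transporter gene, was at 80.8, 64.1 and 56.9 and 30.8, 19.8 and 30.1 (-1.30 ± 0.22, adjusted p = 0.197), and Slc51a, a subunit of the basolateral exporter of bile acids, at 117, 99.7 and 107 and 58.95, 20.1 and 44.5 (-1.49 ± 0.37, adjusted p = 0.279). In lipid absorption 29 of 30 genes were negative and 7 lower without overlap. The lipid list shares Fabp1, Apoa4 and Creb3l3 with the villus lists and Mttp with the brush border list. Npc1l1, the importer of luminal cholesterol, was at 162, 167 and 124 in BRAF and 73.6, 60.3 and 72.2 in SMAD4KO_BRAF (-1.12 ± 0.16, adjusted p = 0.173), and the sterol exporter pair Abcg5 and Abcg8 at -0.84 and -0.93. The lipid median of -0.75 was -0.50 without BRAF library 0 and -0.49 without SMAD4KO_BRAF library 2. Xenobiotic metabolism genes had a median of -0.74, with 11 of 28 lower and 1 higher without overlap. Gstm1, a glutathione transferase gene with close relatives that 50 bp reads may not separate, was at 92.7, 105 and 103 in BRAF and 55.8, 50.4 and 47.3 in SMAD4KO_BRAF (-0.96 ± 0.11, adjusted p = 0.111). The 1 higher gene was Ces2a, a carboxylesterase gene, at 60.8, 103 and 103 in BRAF and 567, 182 and 230.1 in SMAD4KO_BRAF (1.72 ± 0.46, adjusted p = 0.307).

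Crypt base stem cell genes lay on the other side. Of 28 tested, 24 were positive, 11 higher without overlap and none lower, and the median was 0.46, with none passing over all genes. Lgr5, the R-spondin receptor gene that marks these cells, was at 1.48, 2.35 and 1.26 FPKM in BRAF and 5.19, 5.88 and 6.72 in SMAD4KO_BRAF. Its mean was 3.49-fold higher (1.38 ± 0.19, limma, adjusted p = 0.165). Smoc2, a secreted matrix protein gene of the stem cell signature, was at 28.4, 40.2 and 34.04 and 56.4, 94.98 and 88.01 (1.18 ± 0.23, adjusted p = 0.238). Slc14a1, a urea transporter gene of the same signature, was at 0.389, 0.788 and 0.938 in BRAF and 3.102, 6.67 and 4.79 in SMAD4KO_BRAF (1.75 ± 0.27, adjusted p = 0.183). Gkn3, a gastrokine gene expressed in these stem cells, was at 3.104, 2.05 and 3.28 and 7.06, 18.1 and 8.86 (1.61 ± 0.34), and Pdgfa, a growth factor gene, at 23.3, 13.2 and 15.6 and 40.6, 40.4 and 38.5 (1.19 ± 0.20). The surface protein genes Prom1 and Lrig1, the RNA-binding protein gene Msi1 and the ephrin receptor genes Ephb2 and Ephb3 were also higher without overlap, at 0.75, 0.46, 0.68, 0.32 and 0.52.

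Several defining stem cell genes had overlapping groups. Olfm4, the most abundant marker, was at 144, 398 and 237 in BRAF and 201, 409 and 399 in SMAD4KO_BRAF, with overlap (0.42 ± 0.45, adjusted p = 0.665). Ascl2, the transcription factor gene that maintains the stem cell state, was at 1.84 ± 0.2299 and 1.77 ± 0.192 (-0.03 ± 0.15), and Axin2, a Wnt target, was at 0.36 ± 0.33. Bmi1, proposed to mark slow-cycling cells, was at 0.26, also with overlap. In the list of canonical Wnt targets, which shares Lgr5, Ascl2, Axin2 and others with the stem cell list, 11 of 13 genes were positive and 3 higher and 1 lower without overlap, the lower one being the transcription factor gene Sp5, at 2.295, 1.37 and 1.59 in BRAF and 1.13, 0.553 and 0.693 in SMAD4KO_BRAF. The Wnt median of 0.31 was 0.53 without SMAD4KO_BRAF library 0 and 0.20 without SMAD4KO_BRAF library 1. Cell cycle genes had a median of 0.20, with 32 of 35 positive and 3 higher without overlap, a share close to the background. Leaving out BRAF library 0 or 1 gave medians of 0.12 or 0.37, leaving out SMAD4KO_BRAF library 0 gave 0.39, and library weights gave 0.35. The 3 genes without overlap were the kinase gene Cdk2 (0.61) and the replication licensing genes Cdt1 (0.38) and Cdc6 (0.54).

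Paneth cells sit between the stem cells and secrete antimicrobial defensins. Of 27 tested Paneth cell genes, 23 were positive, 7 higher and 1 lower without overlap, and the median was 0.58, or 0.88 without BRAF library 2 and 0.26 with library weights. Lyz1, which encodes Paneth cell lysozyme, was at 2072, 2347 and 2786 FPKM in BRAF and 5340.0, 4038 and 3564 in SMAD4KO_BRAF (0.83 ± 0.35, adjusted p = 0.367). The defensin gene Defa21 was at 370.5, 1015 and 617 and 2175, 1386 and 1257 (1.34 ± 0.43, adjusted p = 0.334), and Habp2, a secreted protease gene, at 2.94, 3.51 and 6.29 and 13.1, 11.8 and 8.43 (1.24 ± 0.27, adjusted p = 0.242). All 11 tested symbols starting with Defa were positive, 5 without overlap, with a median of 0.95, but defensin genes are near-identical copies among which short reads can be misassigned. Wnt3, the Wnt ligand that Paneth cells supply, was at 0.831, 1.22 and 1.41 in BRAF and 2.01, 1.93 and 2.04 in SMAD4KO_BRAF (0.48 ± 0.16, adjusted p = 0.351). The lower gene was Nos2, which encodes inducible nitric oxide synthase, at 15.1, 9.46 and 3.64 and 1.18, 2.23 and 2.28 (-1.69 ± 0.46, adjusted p = 0.312).

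The other secretory lineages showed less. Goblet cell genes had a median of 0.10 over 21 genes, with 3 higher without overlap: the chemokine gene Ccl6, at 29, 42.6 and 34.1 in BRAF and 109.7, 89.6 and 66.7 in SMAD4KO_BRAF (1.29 ± 0.22, adjusted p = 0.214), and the transcription factor genes Foxa3 (0.43) and Creb3l4 (0.56). Muc2, the main mucin gene, was at 229, 249 and 208 in BRAF and 337, 205 and 208 in SMAD4KO_BRAF, with overlap. The goblet median came to 0.049 when BRAF library 2 was left out, and to -0.23 or 0.35 when SMAD4KO_BRAF library 0 or 1 was. Over female libraries it was -0.16, and with library weights -0.05. Enteroendocrine genes had a median of 0.24, and leaving out SMAD4KO_BRAF library 0, 1 or 2 gave 0.07, 0.56 or 0.14. Their median was -0.02 over female libraries and 0.15 after quantile normalization. Of their hormone genes Nts (neurotensin) and Sct (secretin) were lower without overlap, at -1.34 ± 0.34 and -1.54 ± 0.58. The granin gene Chga was at 0.92 ± 0.34, with overlapping groups. In the tuft cell list 1 of 11 genes was higher without overlap, Cd24a, a surface protein gene found on other crypt cells too, at 57.8, 58.96 and 72.9 in BRAF and 102, 119 and 102 in SMAD4KO_BRAF (0.76 ± 0.14, adjusted p = 0.222). Among secretory progenitor and Notch genes, with a median of 0.15 that was 0.29 without SMAD4KO_BRAF library 1 and 0.34 with library weights, the transcription factor genes Sox4 and Hes6 were higher without overlap, at 0.84 and 0.17.

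Among 37 intestinal transcription factor genes, Maf was the one that passed, 6 were lower and 3 higher without overlap. Hnf4g, a nuclear receptor gene of enterocyte identity, was at 109.7, 121 and 137 in BRAF and 92.7, 62.4 and 81.3 in SMAD4KO_BRAF (-0.64 ± 0.18, adjusted p = 0.312), and Klf6 at -0.96. Foxa2, an endoderm factor gene, was at 1.75, 1.81 and 2.09 and 4.201, 3.63 and 3.24 (0.70 ± 0.14, adjusted p = 0.238). Cdx2, which sets intestinal identity, was at 64.2, 82.6 and 80.1 and 75.1, 75.1 and 93.1 (0.10 ± 0.15, adjusted p = 0.771), with overlap.

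The output of the activated kinase was read from 24 genes. The median of MAPK feedback and output genes was -0.09; it was 0.083, -0.15 and -0.11 without BRAF library 0, 1 or 2, -0.0384, -0.16 and 0.0096 without SMAD4KO_BRAF library 0, 1 or 2, and 0.094 over female libraries. Of these genes 11 were positive and 13 negative, and 1 was lower without overlap, the phosphatase gene Dusp5 (-0.50 ± 0.18, adjusted p = 0.354). The feedback phosphatase gene Dusp6 was at 83.4, 39.4 and 72.9 in BRAF and 37.7, 48.5 and 37.6 in SMAD4KO_BRAF, where BRAF library 1 lay within the range of SMAD4KO_BRAF, and the transcription factor gene Etv4 was at 0.44 ± 0.26. All immediate early genes, a class that handling of tissue can induce as well, were negative (18 of 18), with 7 lower without overlap and a median of -0.70. Atf3, a stress-induced transcription factor gene, was at 13.7, 12.5 and 4.78 in BRAF and 1.95, 2.74 and 2.22 in SMAD4KO_BRAF (-1.67 ± 0.37, adjusted p = 0.242), Fosl2 at -0.84 ± 0.18 and Jun at -1.04 ± 0.31. The part of tissue handling in these values was not tested. CDK inhibitors and p53 targets were negative in 18 of 20 genes, with a median of -0.30 that was -0.11, -0.60 and -0.19 without BRAF library 0, 1 or 2 and -0.16 without SMAD4KO_BRAF library 2. Pmaip1, a pro-apoptotic gene, was at 32.8, 27.2 and 27.9 and 20.1, 16.1 and 9.99 (-0.93 ± 0.25, adjusted p = 0.3003), and Cdkn1a, which encodes the cell cycle inhibitor p21, was at 270.5, 86.8 and 203 in BRAF and 100.3, 106 and 51.5 in SMAD4KO_BRAF, with overlap (-1.03 ± 0.48, adjusted p = 0.398).

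Genes of fetal and regenerating epithelium varied widely among the BRAF libraries. The median of fetal and regenerative epithelium genes, 22 in all, was -0.42, and none had groups without overlap. Leaving out BRAF library 0 or 1 gave a median of 0.19 or -0.97, and leaving out SMAD4KO_BRAF library 1 or 2 gave -0.81 or 0.00391. Anxa10, an annexin gene, was at 143, 0.362 and 16.6 in BRAF libraries 0 to 2 and 29.7, 16.7 and 0.338 in SMAD4KO_BRAF libraries 0 to 2, Ly6d at 106, 12.7 and 17.4 and 17.9, 16.5 and 4.797, and Il33 at 85.3, 11.5 and 21.6 and 15.5, 13.6 and 5.57. BRAF library 0 was the highest of all 6 in each of these. The 8 tested gastric genes stood at a median of -0.06, and at 0.76, -0.48 and -0.22 without BRAF library 0, 1 or 2 and -0.10, -0.20 and 0.46 without SMAD4KO_BRAF library 0, 1 or 2.

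Cholesterol synthesis genes showed small differences with little spread. All 24 tested were negative, 17 lower without overlap, none passed over all genes, and the median was -0.44. Relative to the BRAF mean the list stood at -0.10, 0.07 and 0.04 in BRAF libraries 0 to 2 and at -0.54, -0.42 and -0.40 in SMAD4KO_BRAF libraries 0 to 2. Fdps, which makes farnesyl diphosphate, was at 53, 59.1 and 53.6 FPKM in BRAF and 34.9, 37.8 and 33.1 in SMAD4KO_BRAF (-0.63 ± 0.10, adjusted p = 0.192). The mevalonate kinase gene Mvk was at 40.7, 41.9 and 48.2 and 23.1, 26.4 and 28.9 (-0.72 ± 0.12, adjusted p = 0.214), and Msmo1, which removes methyl groups from sterols, at 193, 179 and 193 and 128, 124 and 110.1 (-0.64 ± 0.12, adjusted p = 0.234). The later enzymes Tm7sf2, Nsdhl and Cyp51 were at -0.67, -0.52 and -0.49.

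Fatty acid genes held both small and large differences. Scd1, the desaturase that makes monounsaturated fatty acids, was at 50.9, 31.4 and 7.48 in BRAF and 2.15, 1.97 and 0.927 in SMAD4KO_BRAF (-3.21 ± 0.66, adjusted p = 0.238). Over the 27 genes of the list, 6 were lower without overlap, with a median of -0.19 that was -0.02 after quantile normalization. In glycolysis and hypoxia 27 of 28 genes were negative, 13 without overlap, with a median of -0.56. Ldha, the lactate dehydrogenase gene, was at 1434, 782 and 1089.9 in BRAF and 643, 497 and 527 in SMAD4KO_BRAF (-0.95 ± 0.28, adjusted p = 0.322), the oxygen sensor gene Egln3 at 64.6, 47.7 and 70.5 and 28.7, 17.4 and 27 (-1.30 ± 0.24, adjusted p = 0.222), and the lactate exporter gene Slc16a3 at -1.82 ± 0.50. Unfolded protein response genes had a median of -0.32, and leaving out BRAF library 1 or SMAD4KO_BRAF library 0 gave -0.56, leaving out BRAF library 0 or SMAD4KO_BRAF library 2 gave -0.21, and quantile normalization gave -0.19. Without overlap there was 1 gene higher, Ern2, the stress sensor of mucus-secreting cells (0.58 ± 0.13, adjusted p = 0.248), and 1 lower, Atf3.

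Interferon response genes were negative in 32 of 34 cases, 12 without overlap, with a median of -0.66. Parp14 was at 30.8, 25.7 and 27.3 FPKM in BRAF and 18.2, 15.7 and 19.3 in SMAD4KO_BRAF (-0.63 ± 0.12, adjusted p = 0.238), and Oasl2, an antiviral gene, at 34.8, 22.7 and 34.3 and 14.5, 16.8 and 10.3 (-1.09 ± 0.24, adjusted p = 0.242). Of 21 genes of antigen presentation, 5 were lower without overlap, among them B2m, the light chain of class I molecules, at 1019, 1123 and 867 and 741, 477 and 686 (-0.68 ± 0.25, adjusted p = 0.354), and H2-T23 (-0.86). The median of that list was -0.26; it was -0.18, -0.11 and -0.55 without BRAF library 0, 1 or 2, and -0.11, 0.056 and -0.63 without SMAD4KO_BRAF library 0, 1 or 2. T cell genes varied within both groups: set against the BRAF mean, their median stood at -1.45, 1.83 and -0.17 for BRAF libraries 0 to 2 and -1.30, 0.05 and 1.17 in SMAD4KO_BRAF libraries 0 to 2, and none of 22 had groups without overlap. Their part in the interferon values was not tested. Mesenchyme genes, with a median of -0.45 over 13 genes, stood at -1.22 or 0.24 when BRAF library 0 or 1 was left out, and at 0.038, -0.73 or -0.73 when SMAD4KO_BRAF library 0, 1 or 2 was.

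**Figure D5:**
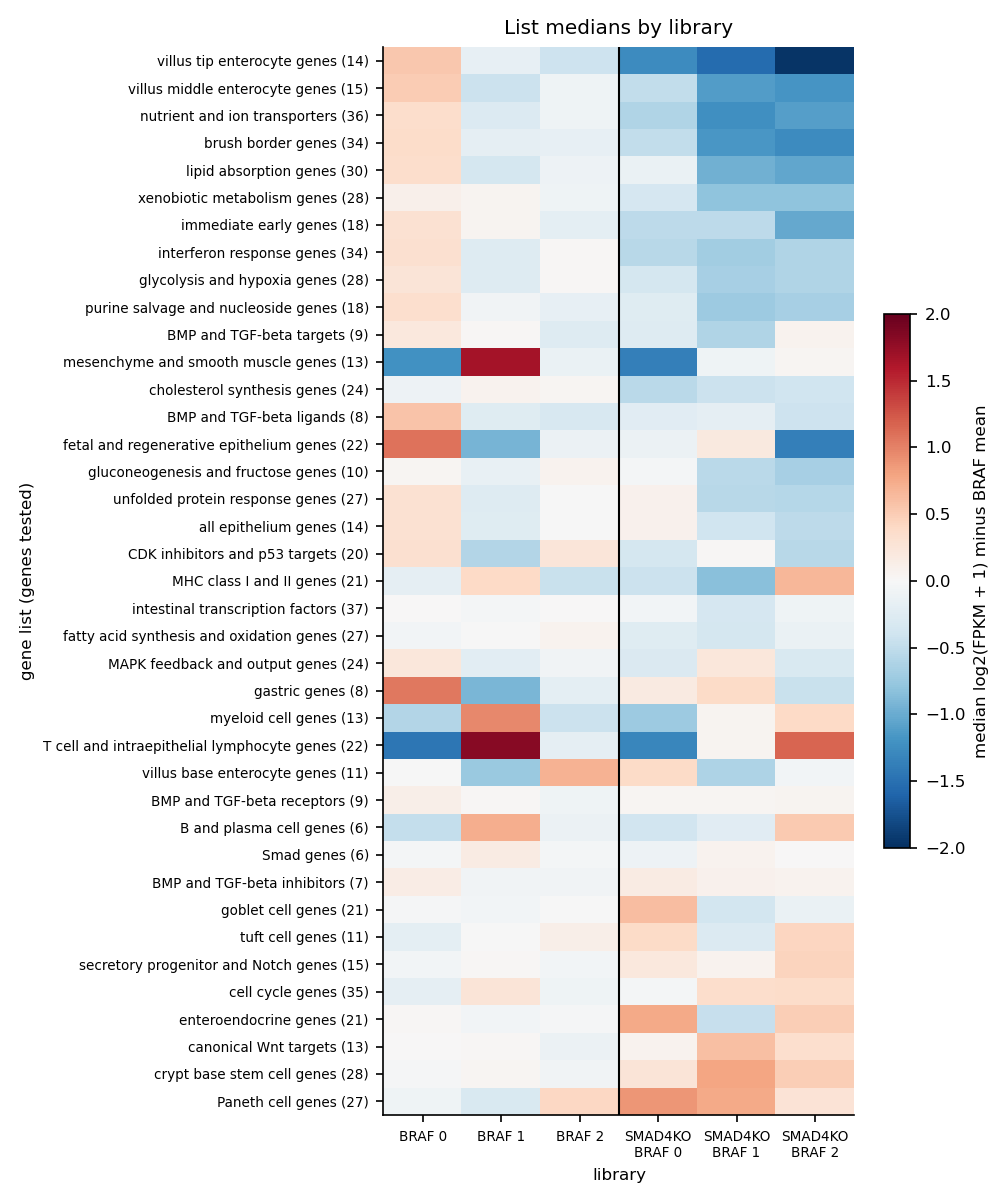
Colour from -2 to 2 gives the median of each library's log2(FPKM + 1) less the mean of the BRAF libraries, for each gene list with 3 or more tested genes (vertical, number tested in brackets, ordered by the median difference) and each library (horizontal). Villus tip genes are at -1.26, -1.54 and -1.96 in SMAD4KO_BRAF libraries 0 to 2, and T cell genes vary within both groups.

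Among genes outside these lists, the largest differences without overlap that did not pass are given as values. Higher in SMAD4KO_BRAF were Ugt1a6b, a glucuronosyltransferase gene that shares exons with its neighbours, at 0.343, 0.6405 and 0.425 in BRAF and 0.968, 16.1 and 9.36 in SMAD4KO_BRAF, and Slc6a7, an amino acid transporter gene, at 1.63, 3.37 and 3.24 and 10.9, 8.77 and 13.5 (1.70 ± 0.25, adjusted p = 0.182). Syne4, a protein of the nuclear envelope, was at 1.38 ± 0.26 and the scaffold gene Mpp3 at 1.36 ± 0.22. Lower were Pla2g4c, a phospholipase gene, at 57.2, 2.05 and 353 in BRAF and 0.784, 0.5902 and 1.47 in SMAD4KO_BRAF, where the BRAF libraries spread from 2.05 to 353 (-4.38 ± 1.61, adjusted p = 0.354), and Clca6, of the family of chloride channel regulators, at 177, 173 and 27.8 and 5.31, 21.04 and 4.03 (-3.44 ± 0.88, adjusted p = 0.286). The membrane protein gene Pmp22, the surface protein gene Susd2 and the water and glycerol channel gene Aqp3 were at -2.50 ± 0.63, -2.28 ± 0.65 and -2.25 ± 0.45.

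The direct comparison with the libraries labelled CDX2KO_BRAF, in 1 fit of the 3 groups, sets the same SMAD4KO_BRAF libraries against a second genotype, so it is not independent of the values above. In it 1211 genes (10.2%) passed at an adjusted p under 0.05. For Id3 the mean FPKM was 7.88 against 96.0 in those 2 libraries, a difference of -3.46 ± 0.21 (limma, adjusted p = 0.000457). Id1 was at 30.3 against 273.5 (-3.19, adjusted p = 0.00230) and Klf4 at 14.4 against 97.1 (-2.68, adjusted p = 0.00177). The BRAF mean was 34.6 for Id3 and 51.1 for Id1, so the CDX2KO_BRAF libraries lay above BRAF in both genes. For Klf4 the CDX2KO_BRAF mean likewise lay above every BRAF library. These gaps therefore do not measure the fall from BRAF to SMAD4KO_BRAF. Nt5e was at 1.22 against 9.58 (-2.30, adjusted p = 0.0222) and Ada at 11.5 against 105.3 (-3.18, adjusted p = 0.0266). Lgr5 went the other way, at 5.93 against 2.74 (0.89, adjusted p = 0.0367). Maf did not pass this test, at 12.3 against 15.2 (-0.22 ± 0.26, adjusted p = 0.613), nor did Npl (adjusted p = 0.110) or Anpep, at 422 against 455 (-0.02 ± 0.42, adjusted p = 0.981). Set against the BRAF mean, brush border genes had medians of -1.70 and -2.24 in CDX2KO_BRAF libraries 0 and 1. Villus middle genes were at -2.23 and -2.83, villus tip genes at -1.03 and -1.42 and cholesterol synthesis genes at -0.40 and -0.49. Lower medians in these lists were thus not particular to SMAD4KO_BRAF, whereas interferon response genes were at 1.45 and 1.65. Crypt base stem cell genes were at 0.37 and 0.20, so a positive median of that list was not particular to SMAD4KO_BRAF either. Paneth cell genes were at -0.47 and -0.87. Cdx2 is not lower in the libraries labelled CDX2KO_BRAF, at 155 and 121, than in BRAF, so these directions rest on the label. FPKM covers the whole gene, so this level cannot show whether the floxed part of Cdx2 was deleted.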

How the data were processed

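RNA of jejunal crypts had been sequenced as 50 bp single-end reads, per the labels' protocols. The deposited FPKM values of the authors were used as given. TopHat2 2.1.0, Cuffnorm 2.2.1, Cuffdiff 2.2.1 and mm9 are named, per the submitters' processing notes; which program made the table is not given in the sources used here. Columns were matched to groups by name, and a library is called by its column's number. The table's other 3 columns matched no sample and were not used. A gene was tested where 2 or more of the 6 libraries had an FPKM of 1 or higher (11860 of 23951 symbols), on log2(FPKM + 1) with limma 3.58.1 in R 4.3.3 (trended variance, 2 groups), with Benjamini-Hochberg adjustment over all tested genes and a threshold of 0.05. The fit was also run on simulated data, with each gene drawn independently from a normal distribution around its own mean. The simulation held no shifts shared between genes, so it does not cover such shifts. Lists are described by counts and medians, without a set test. Python 3.11.15, numpy 2.4.6, pandas 2.3.3 and matplotlib 3.10.9 were used for summaries and plots.

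The members and lists were chosen with earlier results of these data known. Named genes were Smad4, Braf and Cdx2, the called genes, the 12 largest differences without overlap in each direction (unadjusted p under 0.05, mean FPKM of at least 5 in the higher group), up to 6 members of each list with the smallest p, and all members of the pathway, stem cell and villus zone lists. Some known markers outside this rule were added after their values were seen. Fits were repeated with each library left out, with library weights, with sex or the column number as a term, over female libraries only, robustly, without the trend, over 3 groups, after quantile or median-ratio rescaling, with a pseudocount of 0.1, and with a filter at 5 FPKM or none. Leaving out symbols of short RNAs was added after seeing the data. Promoter windows were found for 8849 of the tested symbols (74.61%), and no coordinates are given because the reference build differs from mm9. A gene that the naming rule selects is not reported here.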

Additional observations from a re-analysis of the deposited data

How the results depend on the processing

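The number of called genes depended on the setting, and the cause was not tested. With library weights 92 genes were higher and 151 lower, with sex as a term 7 and 31, over female libraries only 9 were higher, and without a filter 2 were lower. Leaving out 1 library gave 4 to 7 higher and 1 to 18 lower genes, and without symbols of short RNAs 0 were higher and 1 lower. Smad4 stayed between -2.32 and -2.10 when 1 library was left out, and its call ended without SMAD4KO_BRAF library 1, at -2.16. The median of BMP and TGF-beta targets was -0.00075 without a filter, which adds genes near 0, 0.0900 with library weights, and -0.63 to -0.10 with 1 library left out. That of cholesterol synthesis genes was -0.30 after quantile normalization. With 1 library left out the medians ran from 0.31 to 0.59 for stem cell genes, -1.72 to -1.30 for villus tip genes, -1.24 to -0.80 for brush border genes and -0.51 to -0.38 for cholesterol synthesis genes, and these 4 kept their sign under all settings run.

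The samples of the 2 groups share only column numbers. Deviations from the group means had correlations of 0.26, -0.050 and 0.0033 for same-numbered libraries and of -0.35 to 0.33 for the other pairs. Deviations from a mean of 3 libraries are bound to each other, so these values cannot show whether the numbers pair libraries. With the number as a block Smad4 stayed at -2.19 with an adjusted p of 0.0724 (limma), 3 genes were higher and 1 lower.

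Signs changed for some small or unsteady values, none of them called. Over genes with a minimum FPKM of 5 the ligand median was 0.63. After quantile normalization Braf was at -0.0025 and Epcam at 0.0071. With library weights Ascl2 was at 0.0317, Id2 at 0.0900 and the antigen presentation median at 0.41. Over female libraries Muc2 was at -0.14 and Smad1 at -0.0029. With 1 library left out the lowest and highest values were -2.49 and 0.88 for Anxa10, -0.011 and 0.17 for Cdx2, -0.24 and 0.54 for Rps3a1, -0.078 and 0.21 for Smad1, -0.33 and 0.12 for Tmem184b, -0.48 and 0.76 for the gastric median, -0.10 and 0.022 for Ascl2, -0.14 and 0.21 for Muc2, -0.82 and 0.017 for Fabp1, and -0.036 and 0.10 for Smad2. Among single genes named in the text, 37 more calls appeared with library weights and 7 with sex as a term. FPKM without counts gives no counting error, and 3 libraries a group limit the precision.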

Other observations

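Genes of gluconeogenesis and fructose use, not described above, had a median log2 difference of -0.37 over 10 tested genes, 7 of them negative and 1 lower without overlap. The median was -0.78 without SMAD4KO_BRAF library 0, -0.22 without SMAD4KO_BRAF library 1, -0.66 over female libraries and -0.15 after quantile normalization. The gene without overlap was Khk, the ketohexokinase that begins fructose breakdown, at 132, 118 and 129.7 FPKM in BRAF and 92.9, 67.8 and 108 in SMAD4KO_BRAF (-0.52 ± 0.19, limma, adjusted p = 0.354). The fructose transporter gene Slc2a5 was at 72.9, 29.9 and 40.3 in BRAF and 32.6, 12.3 and 20.2 in SMAD4KO_BRAF, with overlap (-1.11 ± 0.44, adjusted p = 0.361). Pck1, the entry enzyme of gluconeogenesis, ranged from 19.2 to 91.2 among BRAF libraries and from 11.6 to 48.2 among SMAD4KO_BRAF libraries.

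Over all absorptive lists without transcription factors, counting each gene once, 144 of 160 tested genes were negative, 65 were lower and 4 higher without overlap, and the median was -0.78. Over the lists of Paneth, goblet, enteroendocrine and tuft cells, 56 of 79 were positive, 11 were higher and 3 lower without overlap, and the median was 0.24.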
